A study of Homo sapiens with 28 samples.

Results

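PAX1, PAX2, PAX3, PAX5, PAX6, PAX7, PAX8 and PAX9, 8 of the 9 PAX genes in the RefSeq gene table, were followed through the histone marks and chromosome contacts of human embryonic stem cells sorted by cell cycle phase. Each gene was taken from its start to its end on hg19 with 5 kb added on each side, and every listed peak that touched this window was counted. The 8 windows spanned 711.6 kb and held 240 of the 317841 peaks in the 16 peak lists. The ninth gene, PAX4, was not analysed here.

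The cells carried the Fucci reporter, whose fluorescent proteins are made and degraded at set points of the cell cycle, and were grown in a defined medium with heregulin, activin A, a long form of IGF-1 and FGF2. Sorting by this reporter gave an early G1 fraction without either colour (DN), a late G1 fraction (KO2), an S fraction (AzL) and a G2/M fraction (AzH). All groups shared the line and the medium. ChIP-seq, which sequences the DNA bound to a modified histone, covered H3K4me3, H3K27me3, H3K27ac and H3K4me1 in each fraction, and 4C-seq, which sequences the fragments ligated to a chosen viewpoint, was run near the GATA6 and SOX17 promoters. There was 1 library for each mark or viewpoint in each phase, so all differences below are between libraries, have no replicate check and carry no p-value. The lists hold peaks and not reads, so the depth behind a peak is unknown. The H3K27me3 lists held 23755, 31682, 19989 and 26480 peaks in phase order from early G1 to G2/M, and between 24757 and 28735 H3K4me3 peaks. H3K27ac lists held 10268 to 32521 peaks and H3K4me1 lists 1878 to 6280. The identity of the cells could not be checked against marker genes, because the lists give no expression and gene positions beyond the 8 windows were not used here.

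PAX proteins are transcription factors that bind DNA through a paired domain and direct the formation of organs in the embryo. Textbooks group them by structure. PAX1 and PAX9 pattern the vertebral column and the pharyngeal pouches. PAX2, PAX5 and PAX8 act in kidney, midbrain, B cells and thyroid. PAX3 and PAX7 act in neural crest and muscle precursors, and PAX6 acts in eye and forebrain. In pluripotent cells such developmental regulators are known as targets of Polycomb complexes, which deposit H3K27me3 and hold genes silent. H3K4me3 marks the starts of active or poised genes, and a place with both marks is called bivalent. H3K27ac and H3K4me1 are marks of active promoters and enhancers.

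DNA before the transcription start is shown for 3 genes that stand at different ends of the results: PAX7, whose H3K27me3 peak was among the tallest of every list; PAX5, with the only H3K4me3 place inside the windows listed in 3 phases; and PAX8, with the shortest H3K27me3 domain. Each sequence is the 250 bases before the first start in RefSeq (GRCh38.p14), 5′ to 3′ along the gene, with CG dinucleotides in capitals; no position was carried from this build to hg19. PAX7 lies at chr1:18630596-18630845 on the plus strand, PAX5 at chr9:37034269-37034518 on the minus strand and PAX8 at chr2:113278922-113279171 on the minus strand.
PAX7: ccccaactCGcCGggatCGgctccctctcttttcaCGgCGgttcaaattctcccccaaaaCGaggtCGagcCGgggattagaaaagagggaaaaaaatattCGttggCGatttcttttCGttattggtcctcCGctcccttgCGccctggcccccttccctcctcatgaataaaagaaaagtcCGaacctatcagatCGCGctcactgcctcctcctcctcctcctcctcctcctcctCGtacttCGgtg
PAX5: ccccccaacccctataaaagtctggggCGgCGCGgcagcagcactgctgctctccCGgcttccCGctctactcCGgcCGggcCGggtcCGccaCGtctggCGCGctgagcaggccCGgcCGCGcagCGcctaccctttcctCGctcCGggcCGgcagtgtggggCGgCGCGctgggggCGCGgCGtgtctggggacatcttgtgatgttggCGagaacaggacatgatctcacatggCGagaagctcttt
PAX8: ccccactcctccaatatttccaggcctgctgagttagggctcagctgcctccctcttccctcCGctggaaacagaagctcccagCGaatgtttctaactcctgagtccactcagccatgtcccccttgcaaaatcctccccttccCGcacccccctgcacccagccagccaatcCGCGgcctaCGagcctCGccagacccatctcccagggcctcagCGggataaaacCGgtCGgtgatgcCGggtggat
The dinucleotide CG reads the same on both strands. It occurred 18 times in the PAX7 sequence, 27 times in PAX5 and 11 times in PAX8, beside a median of 11 over the 35116 RefSeq promoter stretches of the same length, of which 93.9% held at least 1 CG. PAX6 had 22, PAX3 had 17, PAX9 had 13 and PAX2 had 10. Thus 5 of the 7 PAX genes with an entry lay above the median at their first start. PAX5, with more CG than 82.3% of all stretches, lay highest among these first starts. Later starts can change this order: PAX2 had one with 15 CG, PAX9 one with 11, and those of PAX6 had 3 to 28. PAX1 had no entry.

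H3K27me3 covered the 5′ end of every PAX gene in every phase. The share of all gene starts under H3K27me3 was not computed, so this count has no background beside it. In the 5 kb that follow the 5′ end, all 8 genes were covered over their whole length in early G1, late G1 and G2/M. In S the same held for 7 genes, and PAX1 was covered over 99.0%. In the 5 kb before the 5′ end, PAX1, PAX2, PAX3, PAX6 and PAX9 were likewise covered throughout in all phases. PAX7 had at least 90.5% there, PAX5 at least 88.5%, and PAX8 47.0%, 56.5%, 29.5% and 50.5% in phase order. Further into the gene the mark thinned out: over the rest of each gene the median coverage was 23.8%, 27.5%, 16.3% and 23.1% in phase order. In the 5 kb past the gene's end, PAX3, PAX5, PAX6, PAX7, PAX8 and PAX9 had none in any phase. PAX1 had between 0 and 9.52% there, and PAX2 at least 88.04%.

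**Figure D1:**
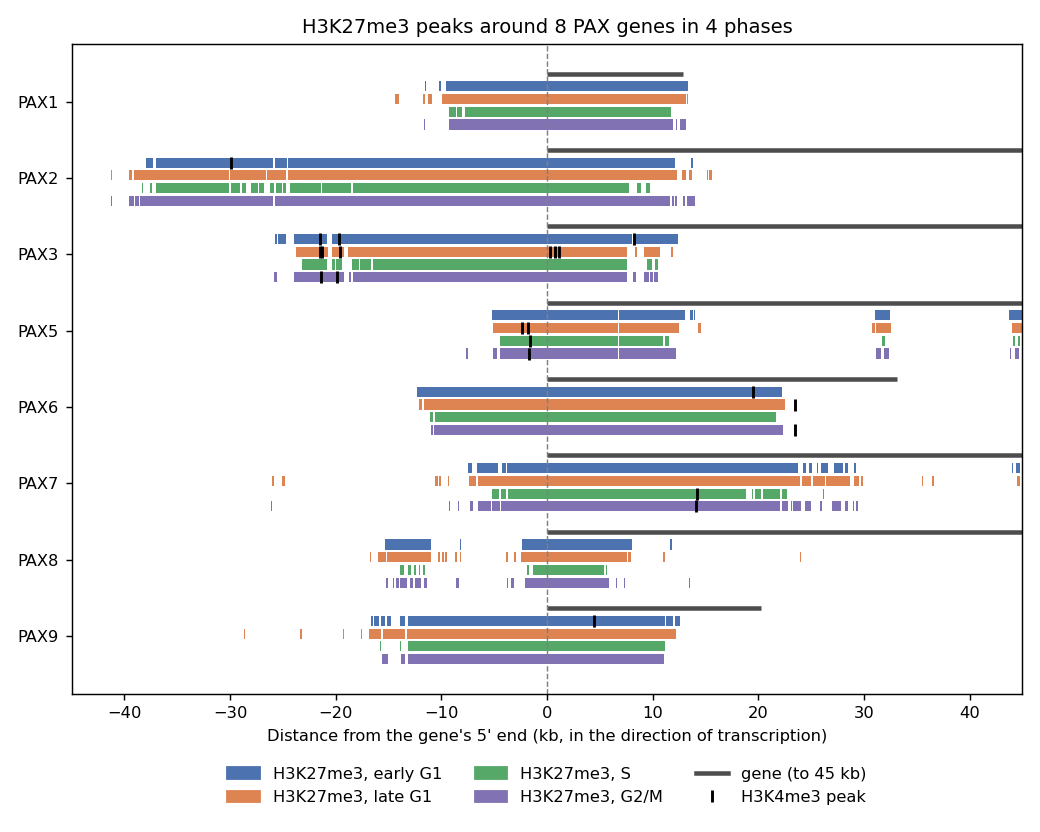
H3K27me3 peaks (coloured bars, 1 line for each phase) and H3K4me3 peaks (black ticks) by distance from each gene's 5′ end in kb, with the gene drawn above as a grey bar. All 32 combinations of gene and phase have H3K27me3 at the 5′ end, and the domains reach different distances to either side.

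When the peaks of the 4 phases were merged at an overlap of at least 1 bp, the 5′ ends lay in 8 domains among 36340 merged H3K27me3 regions. Among the sclerotome genes, the PAX1 domain was 23.3 kb long (chr20:21676351-21699675) and took in the whole gene, and the PAX9 domain was 25.5 kb long (chr14:37113526-37139000) and took in 60.4% of the gene. The PAX2 domain, around a gene needed for kidney, eye and ear, was the longest of the family at 51.0 kb (chr10:102466826-102517800), of which 38.6 kb lay upstream of the 5′ end. Only 13 merged regions were longer. The related genes PAX5 and PAX8 had the shortest domains, with 11.9 kb at PAX5 (chr9:37027726-37039675) and 10.4 kb at PAX8 (chr2:114028501-114038950). PAX3, a neural crest regulator, had a domain of 28.5 kb (chr2:223155676-223184225) with 20.5 kb of it upstream. PAX7, a marker of muscle stem cells, had one of 30.7 kb (chr1:18950876-18981575) with 24.1 kb of it downstream. The PAX6 domain, at a gene required for the eye, was 34.7 kb long (chr11:31817076-31851775) and took in 67.6% of the gene. Within subfamilies, PAX2 had a domain several times longer than PAX5 and PAX8 had, while PAX1 and PAX9 were close in length, as were PAX3 and PAX7.

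Other broad regions lay in the same windows. PAX2 had a region of 19.8 kb that spans its 3′ end (chr10:102579326-102599125). PAX5 had regions of 6.325, 4.475 and 4.025 kb inside the gene, the first of them next to the domain at the 5′ end. PAX7 had regions of 6.475 and 3.525 kb inside the gene, and PAX3 one of 4.225 kb next to its 5′ domain. For PAX5, chromosome 9 held 14.7%, 12.0%, 11.8% and 11.7% of all H3K27me3 peaks in the 4 lists in phase order, more than chromosome 1 with 8.66%, 9.23%, 8.88% and 9.19%. Its part in the PAX5 values was not tested.

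**Figure D2:**
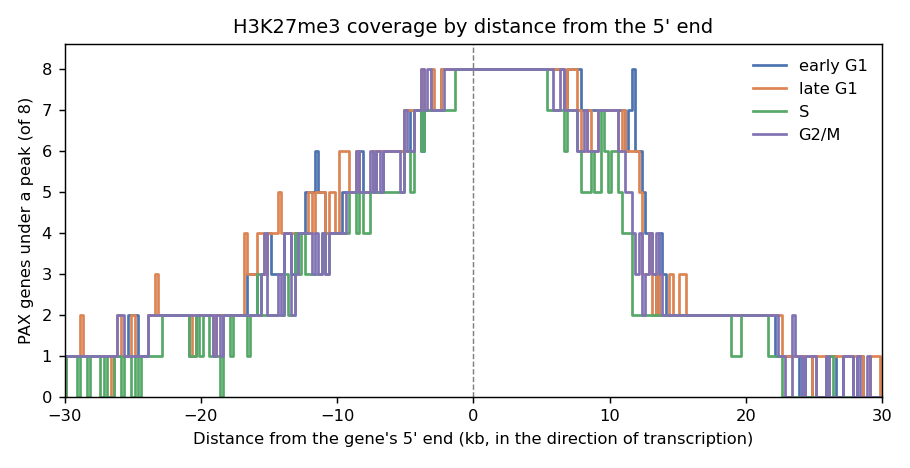
Number of the 8 PAX genes under an H3K27me3 peak (vertical axis) at each distance from the 5′ end in kb (horizontal axis), 1 line for each phase. All 8 genes are covered at and just after the 5′ end, and the line for S narrows first on both sides.

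Peak height in the deposited lists is on a scale that the sources used here do not give, so each peak was ranked within its own list on chromosomes 1 to 21. The percentile is the share of that list's peaks with a lower height. The tallest H3K27me3 peak of all 8 genes stood at or above percentile 95 in all 4 phases, from 96.45 (PAX8 in G2/M) up to PAX7 in late G1, above which no peak of the list stood. Broad domains are tall in general: among the 449 merged regions of at least 10 kb listed in all phases on these chromosomes, the tallest peak stood that high for 80.6%, 86.6%, 70.4% and 84.0% in phase order. By height, PAX7 ranked first of the family in every phase. Its tallest peak had heights of 489.0, 1062, 870.2 and 781.0 in phase order, and 2, 0, 1 and 3 peaks of its list were taller. By the deposited score this order was not kept in G1: PAX7 stood at percentile 99.32 in early G1, below 6 of the other members, and at 99.71 in late G1, below PAX2 and PAX6, but was first in S and G2/M. By height PAX2 followed, with 67, 42, 15 and 17 taller peaks in the 4 lists in phase order. PAX8, which acts in thyroid and kidney, was the lowest member in early G1 and G2/M, at percentiles 97.2 and 96.45. In late G1 and S the lowest member was PAX9, at percentiles 97.9 and 97.2.

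**Figure D3:**
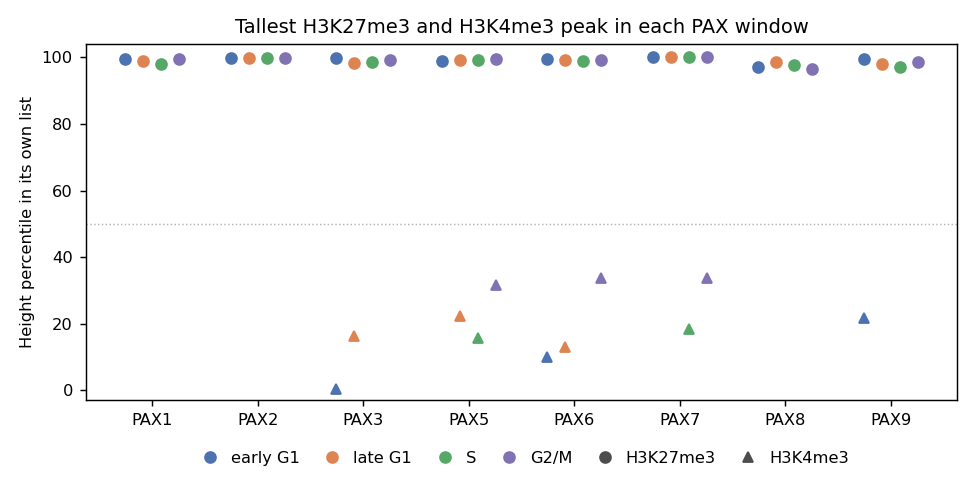
Percentile of the tallest peak in each PAX window within its own list, for H3K27me3 (circles) and H3K4me3 (triangles), with colours for the 4 phases; a missing triangle means no H3K4me3 peak. H3K27me3 lies at 96.45 or above for every gene and phase, and no H3K4me3 peak passes 33.8.

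The length under H3K27me3 was lowest in S. Over the 8 windows together it was 189.9 kb in early G1, 195.7 kb in late G1, 156.7 kb in S and 178.0 kb in G2/M, or 26.7%, 27.5%, 22.02% and 25.02% of the windows. The lists as a whole covered 27.02, 32.02, 17.2 and 24.3 Mb. S stood at 0.801 of late G1 in the windows and at 0.536 in the whole lists. G2/M stood at 1.14 times S in the windows and at 1.41 times S in the whole lists. The windows therefore moved in the same direction as the lists at both steps, by a smaller factor. The peaks that make up the list totals include many short ones, with a list median of 275 to 350 bp.

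**Figure D4:**
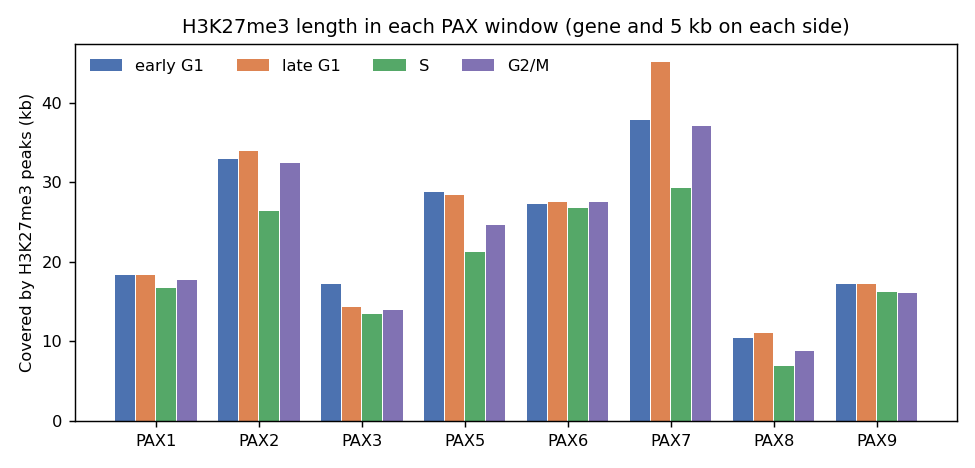
Length under H3K27me3 peaks (kb, bars from 0) in each PAX window, with the 4 phases in cell cycle order from left to right. PAX7 ranges from 29.2 kb in S to 45.1 kb in late G1, while PAX6 stays between 26.7 and 27.5 kb.

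Genes differed in how far the S library stood below the late G1 library. PAX6 hardly moved: 27.2 kb of its window were covered in early G1, 27.5 kb in late G1, 26.7 kb in S and 27.5 kb in G2/M. PAX9 had 17.2, 17.2, 16.2 and 16.1 kb in the same order and PAX1 had 18.3, 18.28, 16.65 and 17.65 kb. PAX3 had 17.2 kb in early G1 and between 13.4 and 14.3 kb in the other phases. These 4 genes had S to late G1 ratios of 0.911 to 0.971. PAX7 had 37.8 kb in early G1, 45.1 kb in late G1, 29.2 kb in S and 37.1 kb in G2/M, a ratio of 0.648. PAX8 had 10.5, 11.1, 6.92 and 8.72 kb in phase order, a ratio of 0.626. PAX2, with 32.9, 33.9, 26.4 and 32.4 kb, and PAX5, with 28.7, 28.4, 21.2 and 24.6 kb, had ratios of 0.779 and 0.746. In these 4 genes, S was the lowest of the 4 libraries and late or early G1 the highest. All these ratios are for whole windows. Within the domain at the 5′ end alone, the ratio was 0.853 for PAX2, 0.947 for PAX5, 0.864 for PAX7 and 0.669 for PAX8.

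At the 5′ end itself, the peak that holds the start was shortest in S for 8 of 8 genes. It was longest in early G1 for 4 genes, in late G1 for 3 and in G2/M for 1. The PAX2 peak was 36.7 kb in early G1, 36.9 kb in late G1, 26.1 kb in S and 37.4 kb in G2/M. The PAX8 peak was 10.3, 10.1, 6.73 and 7.92 kb long in phase order, and the PAX5 peak 11.9, 11.8, 11.2 and 11.2 kb. At PAX1 the peak was 22.9, 23.1 and 21.2 kb long in early G1, late G1 and G2/M; in S the domain was listed as separate peaks, and the one over the 5′ end was 7.88 kb long. Shortening in S was general: of the 476 merged regions of at least 10 kb listed in all phases, 93.3% had their least covered length in S, and of the 8 PAX domains this held for 7, the exception being PAX9 with 95.3% of its domain covered in G2/M and 95.4% in S. The PAX domains kept a median of 0.915 of their late G1 length in S (quartiles 0.861 and 0.951), beside 0.821 (quartiles 0.676 and 0.908) for the 476 regions. Of the PAX domains, 1 of 8 lay under 0.8, PAX8 with 0.669, against 47.1% of the 476 regions. These shares describe 1 library for each phase, and the difference between PAX domains and the rest was not tested.

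Presence across phases followed region length. The windows held 72 merged H3K27me3 regions, of which 16, or 22.2%, were listed in all 4 phases, close to the 18% of all merged H3K27me3 regions. The share in the windows rose when gaps were joined or short peaks were left out, as given at the end. The 41 regions listed in a single phase were 75 to 675 bp long, while the 16 listed in all phases were 1500 to 50975 bp long. Of the regions of at least 5 kb, 11 of 11 were listed in all phases, beside 98.7% of all such regions. PAX7 and PAX5, the genes with the longest windows, held most of the short ones, with 15 and 10 regions listed in a single phase.

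H3K4me3 was sparse at the same genes. The windows held 3, 6, 2 and 5 H3K4me3 peaks in phase order, 16 in all, each between 75 and 250 bp long. Their summed length was 0.475, 0.9, 0.325 and 0.775 kb in phase order. None stood above percentile 33.8 of its list. PAX1, PAX2 and PAX8 had no H3K4me3 peak in their windows in any phase. The 16 peaks merged into 12 regions, and 0 of the 12 were listed in all 4 phases, beside 47.7% of all merged H3K4me3 regions. The 2 sets are unlike in size, since the H3K4me3 lists had median peak lengths of 675, 500, 550 and 475 bp in phase order. A share for regions as short and low as those of the windows was not computed.

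Within the windows, the place found most often lay upstream of PAX5, the gene that fixes B-cell identity, between -1.899 and -1.55 kb from the 5′ end, where a minus sign means upstream. Its H3K4me3 peaks were chr9:37036176-37036375 in late G1, chr9:37036026-37036225 in S, and in G2/M chr9:37036051-37036300, at percentiles 20.7, 15.8 and 31.8 of their lists; early G1 had none. In late G1 the same place also had H3K27ac (chr9:37036151-37036375, percentile 63.0), H3K4me1 and H3K27me3, so that all 4 marks overlapped there. In S it had H3K4me3, H3K4me1 and H3K27me3, and in G2/M H3K4me3 and H3K27me3. Mixed cells, or the 2 copies of the gene in a cell, cannot be told apart from nucleosomes that carry several marks.

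PAX6 and PAX7 each had 1 H3K4me3 region listed in 2 phases. At PAX7 it lay up to 14.2 kb inside the gene, with a peak at percentile 18.4 in S and at 33.8 in G2/M. At PAX6 it lay 23.4 to 23.6 kb inside the gene, past the far end of the H3K27me3 domain, with a peak at percentile 13.0 in late G1 and 33.8 in G2/M. PAX3 had 3 peaks in late G1, between 0.19 and 1.26 kb after its 5′ end, at percentiles 11.0 to 16.2, and no H3K4me3 near that place in the other 3 libraries. The other H3K4me3 peaks lay 8.24 kb inside PAX3 in early G1 (percentile 0.307), 19.4 kb inside PAX6 in early G1 (10.1), 85.8 kb inside PAX7 in G2/M (2.78), 72.7 kb inside PAX5 in G2/M (11.0) and at -2.449 kb from PAX5 in late G1 (22.4). PAX9 had a peak of 225 bp in early G1, 4.32 to 4.54 kb after the 5′ end used here. RefSeq lists another PAX9 start 4.29 kb after the first in GRCh38.p14.

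These H3K4me3 peaks lay almost all within H3K27me3. The overlap was seen for 3 of 3 peaks in early G1, 5 of 6 in late G1, 2 of 2 in S and, for G2/M, 4 of 5. Over all merged H3K4me3 regions, 21.4%, 22.4%, 16% and 20.4% overlapped H3K27me3 in phase order. These shares are of merged regions of every size, while the PAX counts are of single peaks that were short and low. Counted as merged regions, 11 of the 12 overlapped H3K27me3 in a phase in which they were listed; the remaining one lay 72.7 to 72.8 kb inside PAX5 and was listed in G2/M. H3K27me3 covered between 22.02% and 27.5% of the windows and lay at all 5′ ends, so overlap near those ends adds little. The peak 19.4 kb inside PAX6 overlapped it too, but within the domain that holds the 5′ end. The peak 8.24 kb inside PAX3 overlapped the region of 4.225 kb next to that gene's 5′ domain. The peak 85.8 kb inside PAX7 overlapped a separate region of 6.475 kb. The peaks without overlap lay 72.7 kb inside PAX5 in G2/M and 23.46 kb inside PAX6 in late G1. The reason for the overlap was not tested.

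Read from the H3K27me3 side, a peak of H3K4me3 lay within 4, 2, 2 and 3 of the 8 PAX domains in phase order. Among the 476 broad regions the shares were 38.4%, 35.9%, 31.7% and 43.3%, so the PAX counts were near the background. None of the 8 PAX domains had H3K4me3 in all 4 phases, beside 22.1% of the broad regions, and 2 of 8 had it in no phase (PAX1 and PAX8), beside 46.2%. H3K4me3 peaks of at least 500 bp lay in 0 of the 8 PAX domains in each phase, beside 15.5%, 11.1%, 10.5% and 11.6% of the broad regions in phase order. These shares would come to about 1 domain in 8. The longest peak in a PAX domain was 375 bp, between -19.86 and -19.49 kb from the PAX3 5′ end in early G1; that place was also listed in late G1 (150 bp) and G2/M (75 bp).

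H3K27ac and H3K4me1 had few peaks in the windows. The whole H3K27ac lists covered 9.94, 9.445, 2.533 and 5.601 Mb in phase order. The H3K4me1 lists covered only 0.248, 0.531, 0.9469 and 0.9058 Mb. The small number of H3K4me1 peaks here therefore does not show that the PAX genes lacked this mark more than other places did. H3K27ac had 1 peak in early G1, at PAX7, and 3 in late G1, at PAX2, PAX5 and PAX7, and 0 in both S and G2/M. Of the 4 regions, 0 were listed in all phases, beside 10.4% of all merged H3K27ac regions. The S list was also the shortest of the H3K27ac lists, with 10268 peaks. When each H3K27ac list was limited to that number of its tallest peaks, the windows held 0.0 kb of H3K27ac in all 4 phases, so the difference between phases was not kept. H3K4me1 had 1, 1, 4 and 2 peaks in phase order, at PAX3, PAX5 and PAX7. With lists of equal number its length in S was 0.225 kb in place of 0.725 kb, the same as in G2/M. Of the H3K4me1 regions, 0 of 7 were listed in all phases, beside 0.281% of all merged H3K4me1 regions. At PAX3 the peaks of early G1 and G2/M lay 58.4 to 58.5 kb and 57.9 to 58.2 kb inside the gene without touching. The tallest by rank were a peak 94.9 to 95.1 kb inside PAX7 in G2/M, at percentile 98.5, and one 169.7 to 169.9 kb inside PAX5 in S, at percentile 97.0. Neither overlapped another mark in its own phase; the place in PAX7 had an H3K27me3 peak in late G1 and in S.

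The 4C libraries gave reads at HindIII sites across the genome, and 192 of these sites lay in the PAX windows. None of the PAX genes shares a chromosome with GATA6 or SOX17, so these are contacts between chromosomes, or reads that arise without a contact; the libraries do not tell these apart. From the GATA6 viewpoint, 15.6%, 20.3%, 22.9% and 9.9% of the PAX sites had at least 1 read in phase order, with exact 95% binomial intervals of 10.8% to 21.5%, 14.9% to 26.7%, 17.2% to 29.5% and 6.06% to 15%. Over all autosomal sites off the viewpoint's chromosome the shares were 7.31%, 8.33%, 9.28% and 5.17%. From the SOX17 viewpoint, 19.3%, 17.7%, 23.4% and 10.9% of PAX sites had reads, with intervals of 13.9% to 25.6%, 12.6% to 23.9%, 17.6% to 30.1% and 6.9% to 16.2%, beside 7.55%, 6.43%, 8.28% and 4.32% of all sites. All 8 PAX intervals lay above the background share, and G2/M was lowest in the PAX windows as in the background. In GATA6 G2/M this rested much on PAX7, which held 9 of the 19 PAX sites with reads, while PAX6 and PAX9 had 0. The share of sites without PAX7 was not computed. The intervals cover counting error only and treat neighbouring sites as independent.

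Sites inside broad H3K27me3 regions, merged over the 4 phases, were read more often than the other PAX sites. The other sites can include some under shorter H3K27me3 regions. Of the 192 sites, 41 lay inside merged H3K27me3 regions of at least 10 kb. From GATA6, 36.6%, 43.9%, 48.8% and 24.4% of these 41 sites had reads in phase order, against 9.93%, 13.9%, 15.9% and 5.96% of the 151 other PAX sites. From SOX17 the shares were 48.8%, 36.6%, 63.4% and 29.3% inside, against 11.3%, 12.6%, 12.6% and 5.96% outside. The exact intervals inside and outside did not overlap in any of the 8 libraries. As above, they treat neighbouring sites as independent, and the split of the 41 sites by gene was not computed. Such regions were read often everywhere: off the viewpoint's chromosome, 27.4%, 32.8%, 33.7% and 16.1% of sites in all H3K27me3 regions of this length had GATA6 reads, and 24.8%, 23.6%, 29.6% and 11.9% had SOX17 reads. The intervals of the 41 PAX sites held this background in all 4 GATA6 libraries and in SOX17 late G1, and lay above it in SOX17 early G1 (32.9% to 64.9%), S (46.9% to 77.9%) and G2/M (16.1% to 45.5%).

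**Figure D5:**
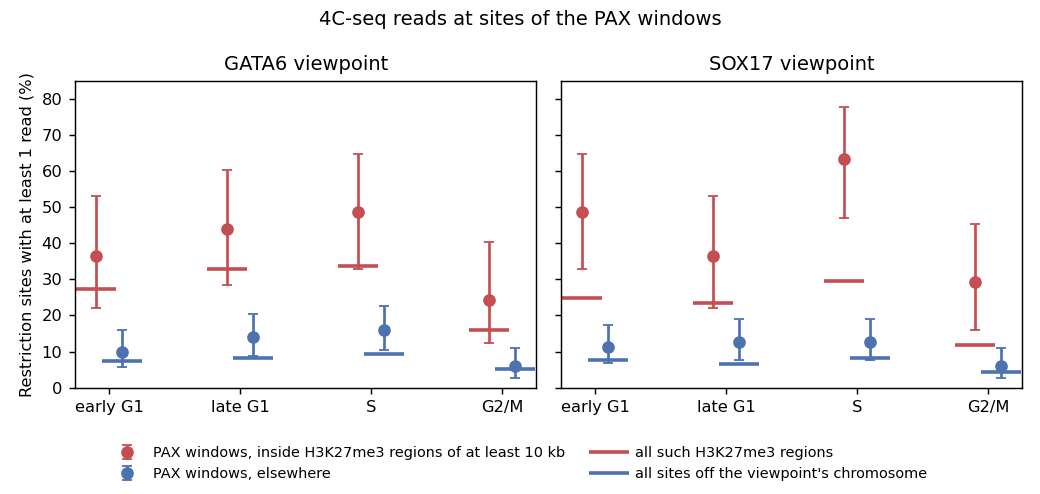
Share of 4C restriction sites with at least 1 read (%), for PAX sites inside H3K27me3 regions of at least 10 kb (red points) and the other PAX sites (blue points), with exact 95% binomial intervals. Short lines give the same share for all such regions (red) and all sites (blue) off the viewpoint's chromosome; the red points lie above the blue points in all 8 libraries.

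PAX7 held most of the GATA6 reads. Its 29 sites carried 2393, 2051, 1769 and 2601 reads in phase order, which was 58.7%, 59.6%, 79.8% and 90.1% of the GATA6 reads in all PAX windows. Per site this was 16.7, 15.1, 23.4 and 19.5 times the level off the viewpoint's chromosome. From SOX17 the same 29 sites carried 282, 710, 81 and 133 reads, or 3.39, 8.69, 1.78 and 1.56 times the level. The number of PAX7 sites with reads was more even, with 8, 11, 12 and 9 from GATA6 and 9, 9, 13 and 5 from SOX17, so the viewpoints differed in reads per site more than in sites. Over all PAX windows, reads per site were 4.28, 3.84, 4.43 and 3.26 times the level for GATA6. Without PAX7 they were 2.08, 1.83, 1.05 and 0.382 times the level. For SOX17 they were 2.71, 3.96, 2.87 and 3.08 times the level, and 2.59, 3.12, 3.07 and 3.35 without PAX7. Reads are PCR products without molecular identifiers, so a pile at a site need not come from many ligations.

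The sites with reads in the other genes were as follows. PAX9 had GATA6 reads at 5, 4, 5 and 0 of its 8 sites in phase order; 0 of 8 allows a share of up to 37.5%, taking 3 counts as the limit here and below. PAX6 had GATA6 reads at 3, 5, 4 and 0 of its 18 sites, where 0 allows up to 16.7%, and SOX17 reads at 4, 6, 7 and 5 of them. PAX3, with 46 sites and a domain at one end, had reads at 2, 2, 2 and 3 sites from GATA6 and at 4, 2, 3 and 0 from SOX17, where 0 of 46 allows up to 6.52%. PAX8 had reads at no more than 2 of its 18 sites in any library, and at 0 from SOX17 in G2/M, where 0 of 18 allows up to 16.7%. PAX5, with 48 sites, had reads at 5, 10, 11 and 1 sites from GATA6 and at 6, 8, 6 and 4 from SOX17. PAX2 had reads at 5, 4, 6 and 2 of 21 sites from GATA6 and at 7, 4, 8 and 4 from SOX17. PAX1 has only 4 sites in its window, of which 1 to 3 had reads in each library.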

How the data were processed

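The report uses the 16 ChIP peak lists and the 4C table; the 4 inputs were not analysed here. Groups come from the labels, with 1 library in each. The submitters' processing notes name Bowtie 0.12.7, hg19 and mm9 but not what each was used for, and the deposited coordinates were taken to be hg19. The sources used here do not name the peak caller or say whether inputs entered it. The deposited signal column was used as peak height, and the deposited score column, negative and mostly, though not for every pair of peaks, more negative for taller peaks, as an alternative rank; the meaning of both was read from the values. Heights were 0 on chromosomes coded 22 to 24, so ranks cover 1 to 21. The 4C table was deposited as counts of whole reads at each of 837622 restriction sites. No per-sample column was left unused.

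Windows are the gene positions of the selection rule plus 5 kb; strands came from RefSeq and, for PAX1, from textbook knowledge. Peaks were merged and called overlapping at 1 bp or more. Intervals are exact Clopper-Pearson 95% intervals, and the limit for a share of 0 is 3 counts. For covered lengths, each kb was taken as a trial. All members are named. The 8 members and all thresholds were chosen with earlier results of these data known. A list of PAX partner genes and one of pluripotency genes were not used, since no hg19 annotation was at hand. Python 3.11.15, numpy 2.4.6, pandas 2.3.3, scipy 1.17.1 and matplotlib 3.10.9 were used; coverage and merging were tested on simulated data.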

Additional observations from a re-analysis of the deposited data

How the results depend on the processing

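The window, the peak definition and the ranking were varied 1 at a time, with the effects given here. The length under H3K27me3 changed with the window: with the gene alone it was 147.6, 152.4, 116.8 and 135.6 kb in phase order, with 10 kb on each side 219.3, 228.8, 181.2 and 208.5 kb, and with whole peaks 247.3, 253.8, 198.0 and 233.8 kb. By gene, 8, 3 and 16 of the 32 lengths moved past a binomial interval under these 3 alternatives. That interval takes each kb of the window as a separate trial. Since 1 peak covers many neighbouring kb, it serves only as a yardstick for the size of a change and does not measure sampling error. S stood at 0.766 to 0.817 of late G1 under all 5 alternatives. H3K4me3, H3K27ac and H3K4me1 were at 0.0 kb in every phase when peaks had to be at least 500 bp long. With the same number of peaks per phase, H3K27ac was at 0.0 kb in every phase, H3K4me1 at 0.15, 0.075, 0.225 and 0.225 kb, and H3K4me3 at 0.475, 0.9, 0.325 and 0.6 kb. Ranked by score, 7 in place of 8 genes reached percentile 95 in S, PAX8 standing at 94.1, and PAX7 was first of the family in S and G2/M but not in early or late G1. For H3K27me3, regions listed in all phases numbered 16 of 72 in the main setting. With gaps of up to 1 kb joined they numbered 12 of 26, and with peaks of at least 500 bp 13 of 21. The share over all merged regions was not computed for these alternatives, so the closeness to 18% was not checked under them. For H3K4me3 the number was 0 with gaps joined. No H3K4me3 peak in the windows was long enough for the other alternative. With at least 50% of the region covered, 11 H3K4me3 regions still overlapped H3K27me3. Counting sites in place of reads, the GATA6 ratios were 2.14, 2.44, 2.47 and 1.91. Leaving out PAX7, chosen after seeing the data, gave 2.08, 1.83, 1.05 and 0.382 for GATA6, so G2/M fell below the background; for SOX17 neither alternative moved the ratio by more than 1.5 times. No paired analysis was possible because each group holds 1 library and no result comes from a test.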
